A study of Mus musculus with 17 samples.

Results

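The 10 genes described here encode the parts of the basement membrane that are not collagen: the laminin alpha chains Lama1, Lama2, Lama4 and Lama5, the beta chains Lamb1 and Lamb2, the gamma chain Lamc1, the nidogens Nid1 and Nid2, and perlecan, Hspg2. They were taken by symbol from a table of raw read counts for 21640 genes, in which all 10 are present, and all 10 were among the 14927 genes that passed a filter on low counts and were tested. The table holds 17 bulk RNA-seq samples in 4 groups. The first group is 6 samples of arteriolar smooth muscle cells (aSMCs), called Ai47 aSMCs here. They are EGFP+ cells of adult SMACreER:Ai47 mice given tamoxifen about a month earlier, sorted from a vessel-enriched fraction of the brain after removal of CD31+ and CD45+ cells. A figure legend of the study names SMACreER:Ai14 mice for its sequenced aSMCs, whereas its methods and the sample labels name SMACreER:Ai47. The second is 2 samples of tdTomato+ aSMCs of SMACreER:Ai14 mice, called Ai14 aSMCs here and numbered replicates 7 and 8, and the third is 3 samples of tdTomato+ astrocytes sorted from the cortex of hGFAPCreER:Ai14 mice. The study's general methods have tamoxifen given to adults at least a month ahead of in vivo work, bulk RNA-seq among it. They also describe a sort of tdTomato+ aSMCs from newborn SMACreER:Ai14 pups, for culture, with no removal of CD31+ or CD45+ cells described. Neither account names the samples of these 2 groups. Their age at collection, newborn or adult, and any depletion of other cells were not found in the sources used here. The fourth group is 6 samples of cerebral cortex, labelled as homogenate of wild-type mice, whereas the study's methods describe a fraction of the same dissociated cortices kept before sorting. SMACreER places a tamoxifen-dependent Cre under the smooth muscle actin promoter and hGFAPCreER under the human GFAP promoter. The sort is therefore meant to collect cells in which that promoter was active when tamoxifen was given.

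A basement membrane is a thin sheet of matrix on which cells rest. Each laminin is a trimer of 1 alpha, 1 beta and 1 gamma chain that assembles into a network on the cell surface, and the alpha chain carries the domains that bind integrins and dystroglycan. Nidogens bridge the laminin network to that of type IV collagen, and perlecan is a large heparan sulfate proteoglycan that binds both networks and holds growth factors. Around cerebral arterioles the smooth muscle cells are wrapped in such a sheet, an endothelial sheet lies inside them and a parenchymal sheet, facing the astrocyte endfeet, lies outside. In the brain the chains of Lama4 and Lama5 are known from the endothelial sheet, and those of Lama1 and Lama2 from the parenchymal one.

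Library totals were 41499087 to 53643624 counts in Ai47 aSMCs, 14870507 and 14979228 in Ai14 aSMCs, 5397905 to 7288036 in cortex and 4537137 to 7390630 in astrocytes. Levels are given as CPM, the count on a common scale of library size, after TMM scaling, which sets a factor for each library so that most genes come out level between libraries. The mitochondrial share of the counts was 0.2145% to 0.5594% in Ai47 aSMCs, 16.81% and 17.58% in Ai14 aSMCs, 10.66% to 12.51% in astrocytes and 35.7% to 72.95% in cortex, so depth, this share and the group cannot be told apart. The 6 Ai47 columns held genes of nearly equal raw count. Of 7220 genes with a mean of at least 100 counts there, 352 (4.88%) stayed within a ratio of 1.25 from the lowest to the highest column, against 1 of 3967 genes (0.0252%) in the 6 cortex columns. Lama1 had 5 counts in every Ai47 column, and Lama4 had 2450 to 3060. The study counts its Ai47 aSMC and cortex samples as mice, without tying a column of the table to a mouse, and gives no such count for the samples of the other groups, so p-values describe the spread among the samples at hand, and that spread may in part be technical. Cortex replicates 1 and 2 held fewer mitochondrial counts (38.75% and 35.7%) than the other 4.

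The labels were checked against markers of each cell type. The summed level of 8 smooth muscle markers was 6063 to 7290 CPM in Ai47 aSMCs, 9405 and 10130 CPM in Ai14 aSMCs, 40.43 to 161.4 CPM in cortex and 38.39 to 90.19 CPM in astrocytes. In each aSMC group 8 of 8 were higher than in cortex, against 24.1% (Ai47) and 3.97% (Ai14) of all tested genes. Between the aSMC groups, Tagln, Smtn and Lmod1 were lower in Ai47 and none of the 8 was higher, against 16% and 9.55% of all tested genes. Tagln had means of 13.55 CPM in Ai47 and 247 CPM in Ai14 aSMCs. The sum of 8 pericyte markers, several of which smooth muscle also carries, was 2998 to 6054 CPM and 7352 and 10450 CPM in the aSMC groups against 263.8 to 751.6 CPM in cortex and 12.27 to 17.58 CPM in astrocytes. Rgs5 alone had means of 3495 CPM in Ai47 and 8185 CPM in Ai14 aSMCs. In Ai47 aSMCs 4 of them were higher than in cortex and Abcc9 was lower, against 24.1% and 26.5% of all tested genes. In Ai14 aSMCs 4 were higher and none lower, against 3.97% and 2%. Endothelial cells make basement membrane too, and the sum of 10 endothelial markers was 317.2 to 495.5 CPM in Ai47 aSMCs, 317.7 and 352.9 CPM in Ai14 aSMCs, 411.7 to 1309 CPM in cortex and 515.4 to 1257 CPM in astrocytes. In astrocytes 9 of the 10 were nevertheless lower than in cortex, against 19.8% of all tested genes. There Emcn was at 0 and Slc2a1 alone stood at 947.3 CPM. The sum of 8 fibroblast markers was 1547 to 2369 CPM in Ai47 aSMCs, with Col1a1 at 1739 CPM and Pdgfra at 0, against 150.1 and 173.5 CPM in Ai14 aSMCs, with Col1a1 at 2.003 CPM, 15.88 to 42.18 CPM in cortex and 1.112 to 8.245 CPM in astrocytes. Of 10 astrocyte markers, Gja1 and Sox9 were higher and Slc1a2 and Gjb6 lower in astrocytes than in cortex, while Aqp4 (509.7 CPM) and Gfap (94.03 CPM) did not pass the test. These 2 higher and 2 lower of 10 compare with 14.6% and 19.8% of all tested genes. The sum of the 10 was 1262 to 1917 CPM in astrocytes, 1186 to 1892 CPM in Ai47 aSMCs, of which Gja1 made 1093 CPM, 177.2 and 252.6 CPM in Ai14 aSMCs and 3398 to 18490 CPM in cortex. Astrocyte sums thus overlapped those of Ai47 aSMCs and lay below every cortex library, so this sum did not set the group apart. The group is named by its label here, and its levels below are those of the sorted samples, not of astrocytes in general. Sums of neuron, oligodendrocyte and microglia markers reached at most 43.88, 268.1 and 48.21 CPM in the sorted groups and were at least 504.9, 3576 and 154.6 CPM in cortex. The part that these other cell types have in the values below was not tested. In bulk samples, fewer cells of a type and less RNA per cell cannot be told apart.

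Of the 10 genes, 6 have an entry in the RefSeq promoter table (build GRCm38.p6), namely Lama2, Lama5, Lamb1, Lamb2, Nid1 and Hspg2. The 4 stretches printed here belong to 3 genes that were higher in Ai14 aSMCs than in cortex (Lama5, Lamb2 and Nid1) and to the gene with the largest difference between the aSMC groups (Hspg2). Each runs 5′ to 3′ on the strand of the gene up to the base before its first annotated exon, and capitals mark GC boxes (GGGCGG, or CCGCCC where the box lies on the other strand). They are Lama5 at chr2:180225860-180226109, minus strand, Lamb2 at chr9:108479612-108479735, plus strand, Nid1 at chr13:13437352-13437550, plus strand, and Hspg2 at chr4:137468553-137468768, plus strand.
Lama5: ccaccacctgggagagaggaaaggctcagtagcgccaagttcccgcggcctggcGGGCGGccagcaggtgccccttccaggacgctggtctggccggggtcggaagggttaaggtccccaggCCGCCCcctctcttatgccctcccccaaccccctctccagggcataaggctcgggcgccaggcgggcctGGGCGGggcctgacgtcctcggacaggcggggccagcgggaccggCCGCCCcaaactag
Lamb2: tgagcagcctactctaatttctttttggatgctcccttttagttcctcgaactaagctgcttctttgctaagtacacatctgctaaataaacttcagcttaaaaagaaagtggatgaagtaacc
Nid1: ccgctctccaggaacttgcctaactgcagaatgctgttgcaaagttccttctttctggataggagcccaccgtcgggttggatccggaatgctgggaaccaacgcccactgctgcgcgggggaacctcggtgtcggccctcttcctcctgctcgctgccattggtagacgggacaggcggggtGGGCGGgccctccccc
Hspg2: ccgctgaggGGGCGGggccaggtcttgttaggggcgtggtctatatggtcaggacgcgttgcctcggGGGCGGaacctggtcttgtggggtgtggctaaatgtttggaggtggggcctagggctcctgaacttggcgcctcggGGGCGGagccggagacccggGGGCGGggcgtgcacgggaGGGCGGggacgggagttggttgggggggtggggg
The Lama5 stretch holds 4 GC boxes, that of Hspg2 holds 5, that of Nid1 holds 1 and that of Lamb2 holds 0. In the 250 bases before the start site, 32.7% of 32851 mouse promoters hold a GC box on either strand. No TATA box (TATAAA) lies in the 250 bases of any of the 6 genes, against 12.4% of all promoters, and a CCAAT box (CCAAT) lies in those of Lamb1 and Nid1, against 33.8%. A CArG box, the motif named for serum response factor and found at many smooth muscle genes, lies in the window of Lama2 alone of the 6, against 1.47% of all promoters. That window precedes a RefSeq start site (chr10:27616942) that lies inside the gene, whose GENCODE start is 27619758 on the minus strand. It is therefore not upstream of the first annotated exon. These are matches of letters and say nothing of binding.

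The alpha chain genes did not all have their highest mean in the same group. It was in Ai47 aSMCs for Lama4, in Ai14 aSMCs for Lama2 and Lama5, and in cortex for Lama1. Lama4 (chr10:38965515-39110188, plus strand, GRCm38) encodes an alpha chain with a short N-terminal arm that is found in vessel walls. Its level in Ai47 aSMCs had a lowest value of 104 CPM, a median of 116 CPM and a highest of 148 CPM, and the 2 Ai14 libraries had 44.9 and 53.1 CPM. Cortex had 0.749, 7.21 and 22.9 CPM at its lowest, median and highest, and the 3 astrocyte libraries had 0.0936, 0.254 and 0.960 CPM. Every Ai47 library lay above both Ai14 libraries, and both of these lay above every cortex library. Lama4 was 3.54 ± 0.70 (log2, ± SE) higher in Ai47 aSMCs than in cortex (edgeR quasi-likelihood test, Benjamini-Hochberg adjusted p = 0.000278). The difference between Ai14 aSMCs and cortex, 2.23 ± 0.82, did not pass the test (edgeR adjusted p = 0.119), nor did that between Ai47 and Ai14 aSMCs, 1.31 ± 0.96 (edgeR adjusted p = 0.347). This last difference turned to -0.91 when libraries were scaled by their totals alone, and it passed as 1.44 when only the 2 groups were fitted (edgeR adjusted p = 0.00124).

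Lama5 (chr2:180176373-180225859, minus strand) encodes the largest alpha chain, the partner of integrins and of the receptor Bcam in mature vessels. Ai14 aSMCs had 164 and 153 CPM, and Ai47 aSMCs had 5.86, 22.7 and 54.1 CPM at their lowest, median and highest. Cortex had 5.14, 10.4 and 15.9 CPM, and astrocytes had 0.0936, 4.06 and 2.43 CPM. Both Ai14 libraries stood clear of all others, the Ai47 libraries overlapped with cortex, and all astrocyte libraries lay below cortex. Lama5 was 3.87 ± 0.83 higher in Ai14 aSMCs than in cortex on the log2 scale (edgeR adjusted p = 0.00598) and lower in Ai47 than in Ai14 aSMCs (log2 fold change -2.77 ± 0.82, edgeR adjusted p = 0.0171). Neither the difference between Ai47 aSMCs and cortex (1.10 ± 0.65, edgeR adjusted p = 0.166) nor that between astrocytes and cortex (-2.30 ± 0.89, edgeR adjusted p = 0.0508) passed.

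Lama2 (chr10:26980036-27619758, minus strand) encodes the alpha chain of muscle and of the parenchymal sheet, whose loss causes a congenital muscular dystrophy. Ai14 aSMCs had 30.3 and 24.3 CPM, above every other library. Ai47 aSMCs had 0.203, 0.741 and 5.35 CPM at their lowest, median and highest, cortex had 2.46, 8.26 and 14.1 CPM, and astrocytes had 3.09, 0.507 and 0 CPM. The Ai47 libraries split into replicates 2 and 6, at 5.19 and 5.35 CPM, and the other 4, all under 1 CPM. Lama2 was lower in Ai47 than in Ai14 aSMCs (log2 fold change -3.71 ± 1.247, edgeR adjusted p = 0.0329), and no comparison with cortex passed. In astrocytes 33 of its 37 counts (89.2%) came from replicate 1. An antisense gene, Gm48084, overlaps 631 bases of Lama2 exons, and the sources used here do not say whether counting used the strand.

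Lama1 (chr17:67697259-67822647, plus strand) encodes the alpha chain of embryonic and leptomeningeal basement membrane and was near the floor of detection. The Ai14 libraries had 0.548 and 1.82 CPM, the Ai47 libraries 0.182 to 0.285 CPM and the astrocyte libraries no counts. Cortex ranged from 0 to 5.82 CPM with a median of 0.193 CPM, and 91 of its 93 counts (97.8%) were in replicates 1 and 2. The cortex level was at least 20.0-fold higher than that of astrocytes, a bound set by 3 counts over the 3 astrocyte libraries (0.0782 CPM, for counting error only). The test passed (edgeR adjusted p = 0.0159) but no longer did without cortex replicates 1 and 2 together (edgeR adjusted p = 0.1001). Neither aSMC group differed from cortex past the test, and the differences, -2.82 in Ai47 and -0.43 in Ai14 aSMCs on the log2 scale, became 1.19 and 3.20 without those 2 libraries.

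**Figure D1:**
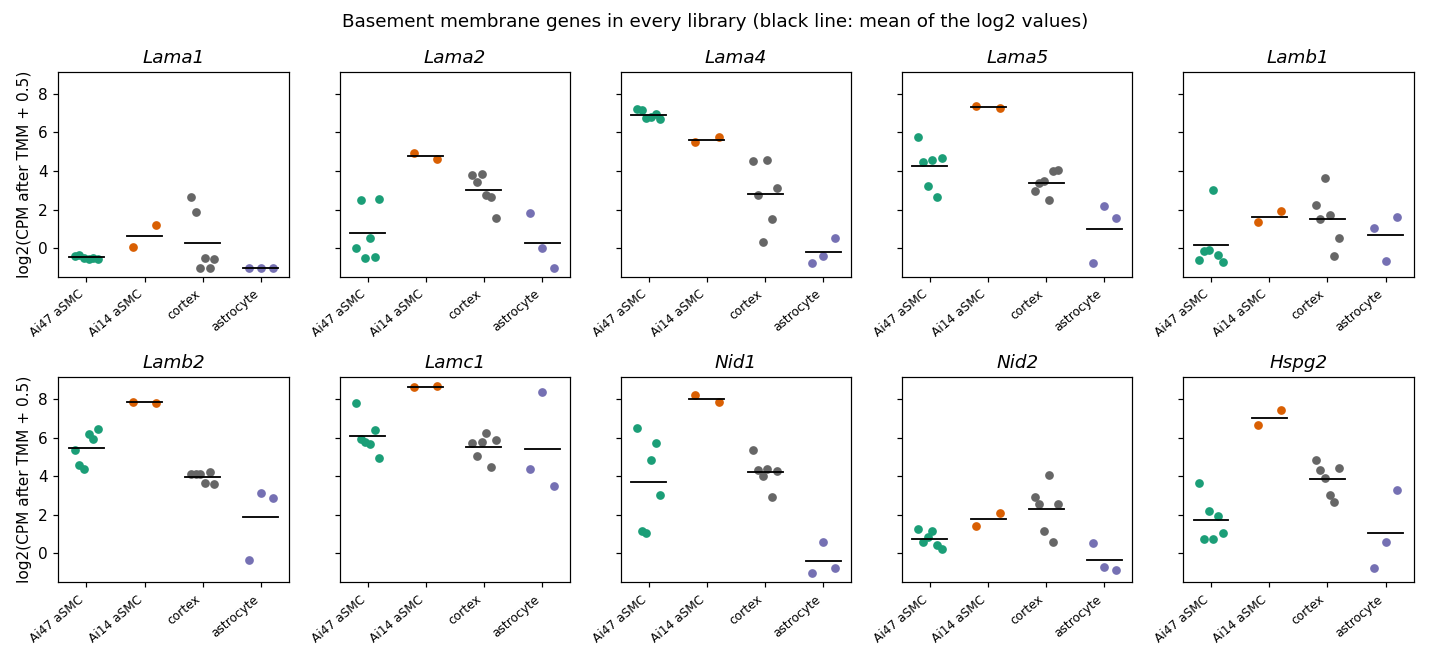
Level of each of the 10 genes in every library, as log2(CPM after TMM + 0.5), with 1 point per library, 4 groups on the horizontal axis and a black line at the mean of the log2 values. Both Ai14 libraries sit above all cortex libraries for 7 genes, and the 6 Ai47 libraries do so for 2, Lama4 and Lamb2, where 24.8% and 19.9% of all tested genes do.

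The 2 beta chains behaved differently. Lamb2 (chr9:108479736-108490530, plus strand) encodes the beta chain of mature vessel, muscle and kidney laminins, whose loss causes Pierson syndrome. Ai14 aSMCs had 233 and 219 CPM, and Ai47 aSMCs had 20.0, 50.1 and 85.1 CPM at their lowest, median and highest. Cortex had 11.5, 16.7 and 18.1 CPM, and astrocytes had 0.281, 8.12 and 6.87 CPM. The 4 groups did not overlap at all, in the order Ai14 aSMCs, Ai47 aSMCs, cortex, astrocytes. Relative to cortex, Lamb2 was 3.88 ± 0.72 higher in Ai14 aSMCs (log2, edgeR adjusted p = 0.00184) and 1.70 ± 0.57 higher in Ai47 aSMCs (edgeR adjusted p = 0.0180). The second call was lost with library totals alone (0.43, edgeR adjusted p = 0.572), without cortex replicates 1 and 2 together (1.79, edgeR adjusted p = 0.0515), with the Ai47 columns summed and with replicate numbers as a block (1.71, edgeR adjusted p = 0.0777). The last step of the order, astrocytes against cortex, was -1.59 ± 0.74 and did not pass (edgeR adjusted p = 0.102).

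Lamb1 (chr12:31265234-31329644, plus strand) encodes the beta chain of early laminins and was low in all groups, with 0.109 to 7.66 CPM in Ai47 aSMCs, 2.07 and 3.27 CPM in Ai14 aSMCs, 0.258 to 12.1 CPM in cortex and 0.127 to 2.58 CPM in astrocytes. All 4 ranges overlapped, and no comparison passed. Single libraries set 2 of the means: Ai47 replicate 4 held 208 of the 239 counts of its group (87%), and cortex replicate 3 had 12.1 CPM where the others had at most 4.22 CPM. Without Ai47 replicate 4, Lamb1 passed as lower in Ai47 aSMCs than in cortex (log2 fold change -3.49, edgeR adjusted p = 0.0125).

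Lamc1 (chr1:153218922-153332786, minus strand) encodes the gamma chain shared by most laminins. Ai14 aSMCs had 393 and 400 CPM, and Ai47 aSMCs had 30.2, 57.5 and 221 CPM at their lowest, median and highest. Cortex had 21.96, 53.5 and 75.9 CPM. The 3 astrocyte libraries had 19.9, 325 and 10.8 CPM, so that replicate 2 held 85.8% of the counts of the group. Lamc1 was 3.01 ± 0.84 higher in Ai14 aSMCs than in cortex (log2, edgeR adjusted p = 0.0353), while the difference between Ai47 aSMCs and cortex was 0.76 ± 0.65 (edgeR adjusted p = 0.349). The astrocyte mean, 119 CPM, was above that of cortex, 49.3 CPM, by 1.27 ± 0.77 (edgeR adjusted p = 0.211). Without astrocyte replicate 2 the difference was -1.88 (edgeR adjusted p = 0.0646), and Lamc1 was 2.81 higher in Ai47 aSMCs than in astrocytes (edgeR adjusted p = 0.00734) where the difference with all libraries was -0.51.

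The nidogens are single-chain linkers, and Nid1 (chr13:13437551-13512269, plus strand) is the more abundant in most tissues. Its level was 292 and 229 CPM in Ai14 aSMCs and 1.62, 17.9 and 89.1 CPM at the lowest, median and highest of Ai47 aSMCs. Cortex had 6.97, 19.1 and 41.1 CPM, and astrocytes had 0, 1.01 and 0.101 CPM from 10 counts in all. The Ai47 libraries spread on both sides of cortex, the Ai14 libraries lay above all others and the astrocyte libraries below cortex. Nid1 was 3.68 ± 1.07 higher in Ai14 aSMCs than in cortex (log2, edgeR adjusted p = 0.0437) and lower in astrocytes (log2 fold change -5.89 ± 1.46, edgeR adjusted p = 0.00444). For Ai47 aSMCs against cortex the difference was 0.57 ± 0.83 (edgeR adjusted p = 0.593), and it was -0.93 with library totals alone. The antisense gene Gm48682 overlaps 143 bases of Nid1 exons.

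Nid2 (chr14:19751265-19811787, plus strand) had 2.22 and 3.85 CPM in Ai14 aSMCs, 0.691 to 1.94 CPM in Ai47 aSMCs, 1.03 to 16.0 CPM in cortex and 0.0505 to 0.936 CPM in astrocytes. The Ai47 libraries overlapped with the lower cortex libraries, and the astrocyte libraries lay below all of cortex. Nid2 was lower than in cortex in Ai47 aSMCs (log2 fold change -2.27 ± 0.87, edgeR adjusted p = 0.0341) and in astrocytes (-4.04 ± 1.28, edgeR adjusted p = 0.0200). The first of these calls held in 2 of 12 fits that each left out 1 library, with adjusted p from 0.0379 to 0.158 (edgeR), and the second held in 8 of 9, the exception being astrocyte replicate 2 (edgeR adjusted p = 0.0522). On the opposite strand Rtraf overlaps 437 bases of Nid2 exons.

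Hspg2 (chr4:137468769-137570630, plus strand) encodes perlecan, whose loss in part causes Schwartz-Jampel syndrome. Ai14 aSMCs had 100.4 and 170 CPM, and Ai47 aSMCs had 1.18, 2.44 and 11.9 CPM at their lowest, median and highest. Cortex had 5.94, 17.1 and 28.1 CPM, and astrocytes had 0.0936, 1.01 and 9.10 CPM, with 180 of 189 counts (95.2%) in replicate 3. The aSMC groups stood on opposite sides of the cortex median, and all Ai47 libraries lay below both Ai14 libraries. Hspg2 was lower in Ai47 than in Ai14 aSMCs (log2 fold change -5.13 ± 1.02, edgeR adjusted p = 0.00109). Against cortex it was lower in Ai47 aSMCs (-2.07 ± 0.81, edgeR adjusted p = 0.0385), a call that held in 1 of the 12 fits with 1 library left out (edgeR adjusted p from 0.0124 to 0.144). In Ai14 aSMCs its 3.06 ± 0.996 did not pass (edgeR adjusted p = 0.0752). Among the alternatives this difference passed only with library totals alone (3.81, edgeR adjusted p = 0.0290) and with only those 2 groups fitted (2.80, edgeR adjusted p = 0.000407).

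Counted over the members, 4 of 10 passed between Ai47 aSMCs and cortex, Lama4 and Lamb2 higher and Nid2 and Hspg2 lower, where 24.1% of all tested genes were higher, 26.5% were lower and 50.6% passed in either direction. The members' share was thus below that of all genes. The split depended on the scaling and the tool. Scaled by library totals alone, 1 member was higher (Lama4) and 4 were lower (Lama1, Lama2, Nid2 and Hspg2), and with DESeq2 2 were higher and 4 lower, again with Lama1 and Lama2 added to those lower. Without mitochondrial genes 2 were higher and none lower. When the 6 near-equal Ai47 columns were summed to 1 library, Lama4 was the 1 member still called (log2 fold change 3.80, edgeR adjusted p = 0.0284). Between Ai14 aSMCs and cortex, 4 of 10 were higher (Lama5, Lamb2, Lamc1 and Nid1) and none lower, where 3.97% of all genes were higher, 2% were lower and 5.97% passed in either direction. Both Ai14 libraries lay above all 6 cortex libraries for 7 of 10 members, against 24.8% of all genes. The median log2 fold change of the 10 members was 2.62 against 0.321 over all genes in that comparison, and -0.375 against -0.158 for Ai47 aSMCs and cortex.

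The calls in Ai14 aSMCs depended on the scaling. With library totals alone, where the median log2 fold change over all genes was 1.18, 6 members were higher than in cortex. Those added were Lama4 and Hspg2. TMM compares each library with a reference library, which edgeR picked as astrocyte replicate 2 with all 17 libraries and as cortex replicate 1 or 3 whenever any 1 library was left out. With cortex replicate 3 as the reference, the median log2 fold change over all genes moved from 0.321 to 0.0738 for Ai14 aSMCs against cortex and from -0.418 to -0.0251 for Ai47 against Ai14 aSMCs. Under this scaling, an alternative chosen after the data were seen, Lama5 (log2 fold change 3.58, edgeR adjusted p = 0.0144) and Lamb2 (3.62, edgeR adjusted p = 0.00391) still passed against cortex, and Lamc1 (2.73, edgeR adjusted p = 0.0701) and Nid1 (3.45, edgeR adjusted p = 0.0652) did not. Lamc1 and Nid1 were also lost in each of the 8 fits that left out 1 Ai14 or cortex library, and Lama5 in the 2 that left out an Ai14 library (highest edgeR adjusted p = 0.125), where the lone library is assumed to vary like those of the other groups.

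Between Ai47 and Ai14 aSMCs, 5 of 10 members were lower in Ai47 (Lama2, Lama5, Lamb2, Nid1 and Hspg2) and none was higher, where 16% of all genes were lower, 9.55% were higher and 25.6% passed in either direction. Ranges did not overlap for 9 of 10 members, against 52.2% of all genes. Lamb2 was at -2.18 ± 0.72 and Nid1 at -3.11 ± 1.06 on the log2 scale (edgeR adjusted p = 0.0308 and 0.0358). Lamc1 did not pass (log2 fold change -2.25 ± 0.84, edgeR adjusted p = 0.0541). Fitting only these 2 groups, 7 members passed, with 6 lower and Lama4 higher, and library totals alone gave 8 lower. With cortex replicate 3 as the TMM reference, Hspg2 alone passed (log2 fold change -4.67, edgeR adjusted p = 0.00243), and Lama2 and Lama5 were just over the threshold (edgeR adjusted p = 0.0525 and 0.0523). With the 6 Ai47 columns summed, no member passed, and Hspg2 was at -4.71 (edgeR adjusted p = 0.280). Reporter, depth, mitochondrial share, and the sort or age where these differ cannot be told apart from one another in this comparison.

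In astrocytes, 4 of 10 members were lower than in cortex (Lama1, Lama4, Nid1 and Nid2) and none was higher, where 19.8% of all genes were lower, 14.6% were higher and 34.5% passed in either direction. The median over the members was -2.58, which Lama1 at its bound would not change, against -0.0833 over all genes. This comparison and those of the aSMCs share the same 6 cortex libraries. The astrocyte libraries were less alike than those of the other groups. The mean correlation of a library with the rest of its group was 0.577 to 0.631 in astrocytes. It was 0.796 to 0.857 in cortex, 0.872 to 0.9 in Ai47 and 0.958 in Ai14 aSMCs. Astrocyte replicate 2 had counts for 9083 genes, and the others for 11405 and 12827. Single astrocyte libraries held 86.4% of the counts of Lama4 (replicate 3), 80% of Nid1 (replicate 2) and 83.3% of Nid2 (replicate 1). Against astrocytes, Ai47 aSMCs were higher for 4 of 10 members (Lama4, Lama5, Lamb2 and Nid1), where 26.1% of all genes were higher, 23.8% were lower and 49.9% passed in either direction, with log2 fold changes of 8.01 ± 1.198, 3.40 ± 0.95, 3.29 ± 0.82 and 6.46 ± 1.49 in that order. With library totals alone the split was even, with 2 higher (Lama4 and Nid1) and 2 lower, Lamc1 (log2 fold change -2.32, edgeR adjusted p = 0.0104) and Hspg2 (-2.32, edgeR adjusted p = 0.0498). Lama5 and Lamb2 then no longer passed (1.34 and 1.24, edgeR adjusted p = 0.184 and 0.193), and the fit that took replicate numbers as a block did not call Lama5 (edgeR adjusted p = 0.0561). Ai14 aSMCs were higher than astrocytes for 6 of 10 members, where 13.6% of all genes were higher, 3.56% were lower and 17.1% passed in either direction. These were Lama1, Lama4 (6.70 ± 1.18), Lama5 (6.18 ± 1.16), Lamb2 (5.47 ± 0.98), Nid1 (9.57 ± 1.75) and Hspg2 (5.29 ± 1.36), and Lama1, at least 15.1-fold higher by its bound, was lost in each of the 5 fits that left out 1 library. The levels of Lama4 and Nid1 in astrocytes rest on 22 and 10 counts.

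**Figure D2:**
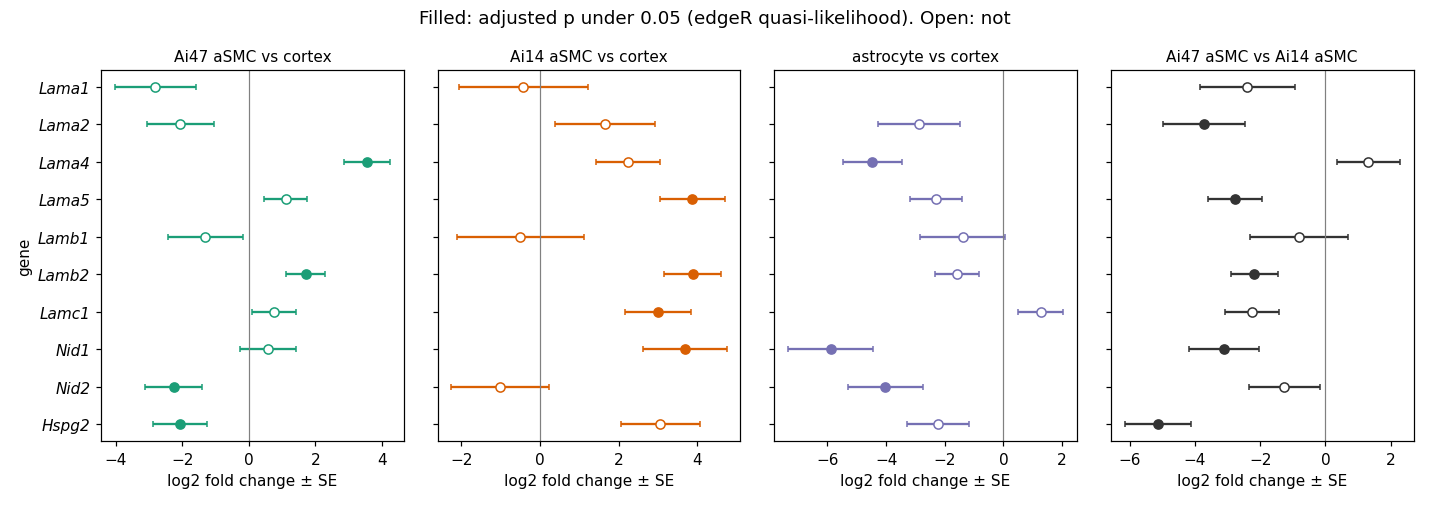
Log2 fold change (horizontal axis, ± SE) of each gene in 4 comparisons, with filled points where the edgeR adjusted p was under 0.05 and open points where it was not. Lama1 is left out of the astrocyte panel because it had no counts in astrocytes. Filled points lie on both sides of 0 for Ai47 aSMCs against cortex (2 higher, 2 lower), to the right for Ai14 aSMCs against cortex (4 higher) and to the left in the other 2 panels.

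Levels of different genes were compared per kilobase of exon, as CPM per kb. In Ai14 aSMCs the order of the levels was Lamc1 (48.0 ± 0.56 CPM per kb, SD, n = 2), Nid1 (37.6 ± 6.46), Lamb2 (37.1 ± 1.55), Lama5 (13.9 ± 0.66), Hspg2 (9.46 ± 3.45) and Lama4 (4.06 ± 0.48), with the other 4 under 2 CPM per kb. Nid1 and Lamb2 were closer than their spread. In Ai47 aSMCs Lama4 (10.1 ± 1.55, SD, n = 6), Lamc1 (10.1 ± 8.40) and Lamb2 (8.21 ± 4.34) led and did not differ beyond their spread, followed by Nid1 (4.35 ± 5.04) and Lama5 (2.03 ± 1.503), and the other 5 were under 0.3 CPM per kb. In cortex Lamc1 (5.96 ± 2.35, SD, n = 6), Nid1 (2.93 ± 1.62) and Lamb2 (2.52 ± 0.45) led, and in astrocytes Lamc1 was at 14.3 ± 21.6 (SD, n = 3) while no other member passed 1 CPM per kb. Lamc1 was thus first or level with the first in all 4 groups, and Lama1 was last in each.

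Summed by class, the 4 alpha chains were at 12.3 ± 2.73 CPM per kb in Ai47 aSMCs and 19.8 ± 0.35 in Ai14 aSMCs, against 2.51 ± 0.75 in cortex and 0.302 ± 0.10 in astrocytes (SD, n = 6, 2, 6 and 3). The 2 beta chains were at 8.36 ± 4.46, 37.4 ± 1.46, 2.90 ± 0.70 and 0.981 ± 0.67 CPM per kb in the same order. The aSMC groups therefore lay nearer to each other in alpha chains than in beta chains, nidogens (4.598 ± 5.09 and 38.1 ± 6.23) or perlecan (0.270 ± 0.29 and 9.46 ± 3.45). Still, the highest Ai47 sum of alpha chains, 17.1, was below the lowest Ai14 sum, 19.5. TMM factors were 0.4231 to 0.5507 in Ai47 aSMCs and 2.205 and 2.212 in Ai14 aSMCs, so these distances depend on the scaling. In Ai14 aSMCs the sum of the alpha chains was below that of the beta chains and below Lamc1, whereas in Ai47 aSMCs the 3 classes differed by less than their spread.

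**Figure D3:**
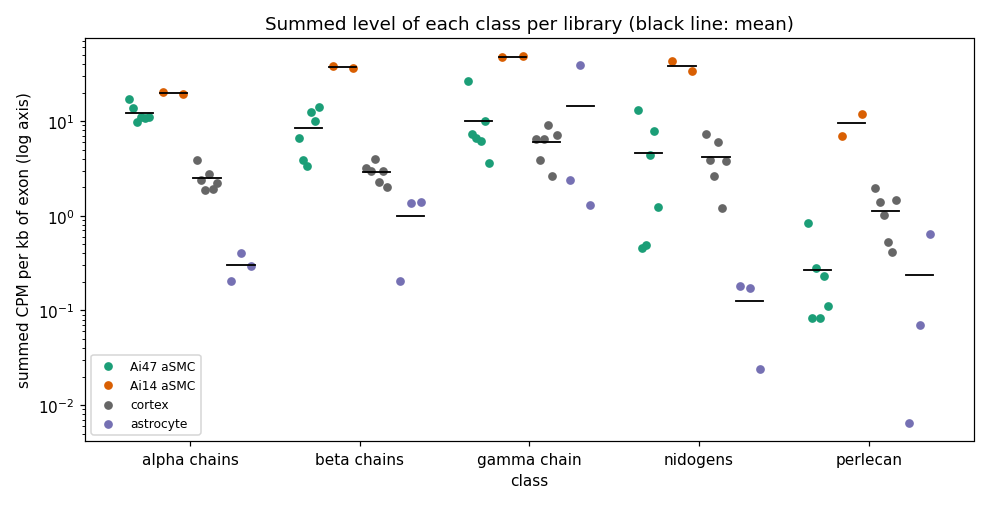
Summed level of each class in every library, in CPM per kb of exon on a log axis, with 1 point per library, colours for the 4 groups and a black line at the mean. After TMM scaling the 2 aSMC groups lie nearer to each other for the alpha chains (12.3 and 19.8) than for perlecan (0.270 and 9.46). Their ranges do not overlap for the alpha chains.

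Which alpha chain made up the class also differed, and a share within a library does not depend on the scaling between libraries. The alpha class here held only Lama1, Lama2, Lama4 and Lama5. Lama3 was left out, at 10.7 ± 11.99 CPM in cortex (SD, n = 6), 3.92 CPM in Ai14 aSMCs and 0.118 CPM in Ai47 aSMCs. The shares, above all those in cortex, are therefore not of all alpha chains. Lama4 was 83.3% ± 8.66 (SD, n = 6) of the alpha chain counts per kb in Ai47 aSMCs, from 71.8% to 94.9%, and 20.6% ± 2.80 (SD, n = 2) in Ai14 aSMCs, at 18.6% and 22.6%. Lama5 was 15.4% ± 8.36 in Ai47 aSMCs and 70.3% ± 2.10 in Ai14 aSMCs, where its 2 values, 68.9% and 71.8%, lay above the Ai47 maximum of 27.8%. Cortex had no fixed pattern, with Lama4 from 3.30% to 68.9% and Lama5 from 16.2% to 71.9%. Lama2 reached 22.1% ± 13.5 (SD, n = 6) in cortex, 8.45% ± 1.18 in Ai14 aSMCs and 1.04% ± 1.25 in Ai47 aSMCs. Of the beta chains, Lamb2 made up 98.5% ± 2.34 in Ai47 aSMCs, 99.3% ± 0.26 in Ai14 aSMCs and 88.4% ± 10.4 in cortex. Nid1 made up 98.4% ± 0.85 of the nidogens in Ai14 aSMCs, 80.0% ± 22.2 in Ai47 aSMCs and 74.1% ± 14.0 in cortex. In astrocytes the classes held 35 to 67 counts per library for the alpha chains, 20 to 187 for the beta chains and 3 to 10 for the nidogens, so no order of shares was read there.

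**Figure D4:**
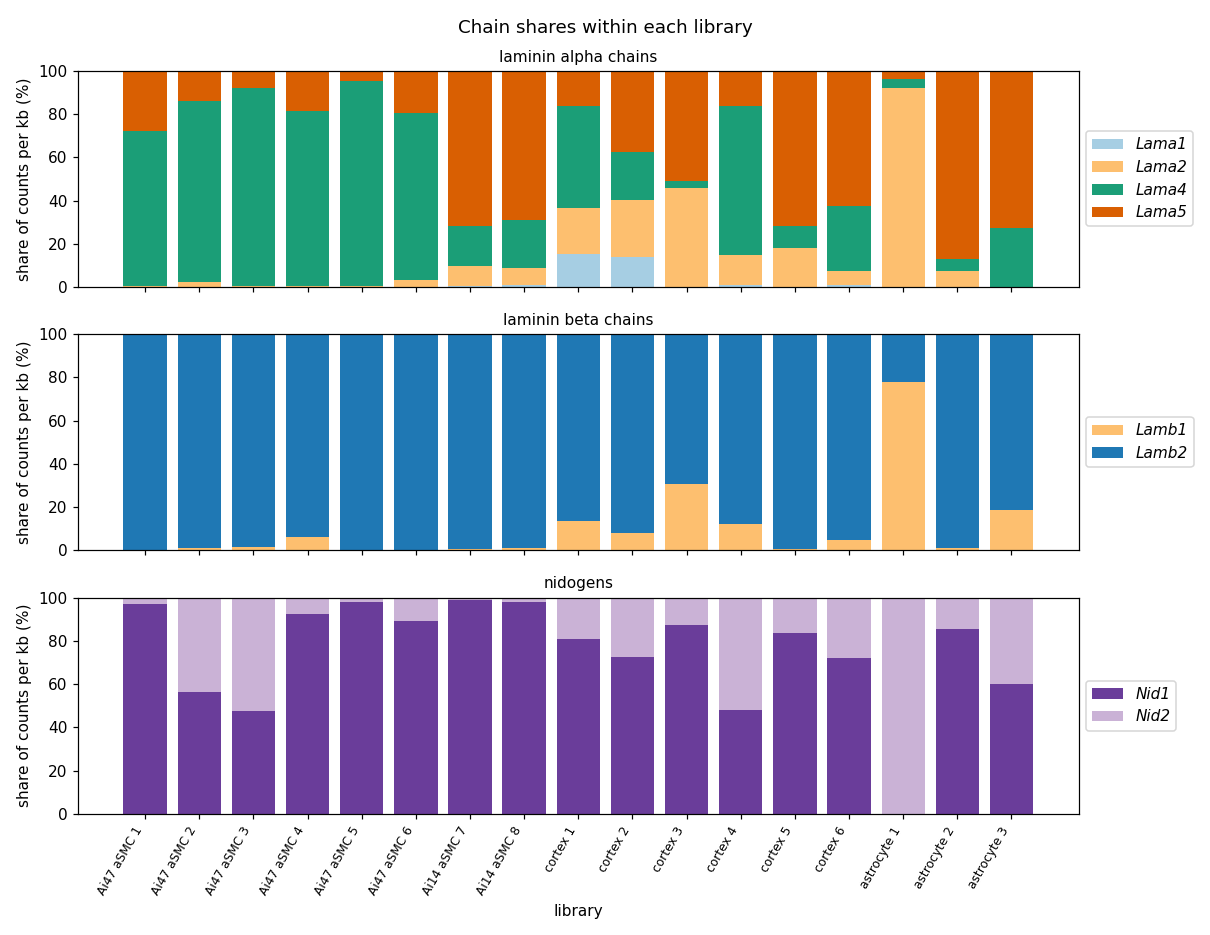
Share of each chain in the counts per kb of its class (percent, vertical axis), as 1 stacked bar per library, for the alpha chains, the beta chains and the nidogens. Lama3 is not among the alpha chains counted. Lama4 fills 71.8% to 94.9% of the alpha bars of the Ai47 libraries, Lama5 fills 68.9% and 71.8% in the Ai14 libraries, and Lamb2 fills nearly all of the beta bars in both.

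Correlations of log2(CPM + 0.5) over the 17 libraries, which share the 4 groups and their depths, are given as description. Lama5 and Lamb2 were the most alike of the members (Pearson r = 0.9), followed by Lamb2 with Nid1 (0.783), Lama5 with Nid1 (0.772) and Nid1 with Hspg2 (0.727). Lama4 had an r of 0.717 with Lamb2 and -0.0102 with Lama2. Among 6230 genes with a mean of at least 10 CPM, the pattern of Lama4 was most like those of Itga7 (0.972) and Mical1 (0.968). Hspg2 was most like Kank2 (0.935) and Arhgef17 (0.854), Lamb2 most like Arhgap29 (0.922) and Tpm2 (0.92), Nid1 most like Tln1 (0.917) and Smurf1 (0.869), and Lama5 most like Gucy1b1 (0.897) and Ppp1r12b (0.885). For Lama2 they were Ubr4 (0.9) and Sh3pxd2a (0.889), and for Lamc1 they were Notch1 (0.868) and Sort1 (0.825). The low genes had weaker matches, Nid2 with Apcdd1 (0.831) and Maoa (0.827), Lamb1 with Actr3 (0.732) and Tln2 (0.731), and Lama1 with Gltp (0.681) and Rap2a (0.676).

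The other laminin chains and netrin-4, which has a laminin-like arm and binds the gamma chain, gave 3 tested genes. Ntn4 was at 543 ± 25.8 CPM in Ai14 aSMCs (SD, n = 2), against 8.97 ± 3.31 in Ai47 aSMCs and 8.84 ± 3.73 in cortex (SD, n = 6 each), and it was higher in Ai14 aSMCs than in cortex (log2 fold change 5.94 ± 0.84, edgeR adjusted p = 0.000136). Lamc3, another gamma chain, was higher than in cortex (1.04 ± 1.21 CPM) in Ai47 aSMCs (15.01 ± 15.02 CPM, edgeR adjusted p = 0.00632) and in Ai14 aSMCs (21.4 ± 6.16 CPM, edgeR adjusted p = 0.0452), and had no counts in astrocytes. Lama3, an epithelial alpha chain, was at 10.7 ± 11.99 CPM in cortex and lower in Ai47 aSMCs, at 0.118 ± 0.049 CPM (edgeR adjusted p = 7.26e-05).

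The partner lists were read against the same shares of all tested genes, of which 24.1% were higher and 26.5% lower than cortex in Ai47 aSMCs, 3.97% and 2% in Ai14 aSMCs, and 14.6% and 19.8% in astrocytes. Of 8 basement membrane collagens, the partners of the nidogens, 6 were higher and 1 was lower in Ai47 aSMCs than in cortex, 4 were higher in Ai14 aSMCs and 4 were lower in astrocytes. In Ai47 aSMCs 4 were higher and 1 lower with library totals alone, and 4 higher with the 6 columns summed. Col4a3, a type IV chain best known from kidney and lung, was at 460.9 ± 319 CPM in Ai47 aSMCs and 0.836 ± 1.12 CPM in cortex (log2 fold change 8.98 ± 1.08, edgeR adjusted p = 9.76e-07). In Ai14 aSMCs the largest changes were those of Col4a5 (39.6 CPM, edgeR adjusted p = 0.0291) and Col18a1 (30.6 CPM, edgeR adjusted p = 0.0171). Col15a1 had no counts in Ai47 aSMCs and astrocytes and 3.24 CPM in cortex. The median log2 fold change of the 8 was 3.77 in Ai47 aSMCs and 3.28 in Ai14 aSMCs, beside -0.158 and 0.321 over all genes.

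Of 12 other basement membrane proteins and crosslinkers, 4 were higher and 1 lower in Ai47 aSMCs than in cortex, 1 was higher in Ai14 aSMCs and 5 were lower in astrocytes. The counts in Ai47 aSMCs became 2 higher and 2 lower with library totals alone, 6 higher without mitochondrial genes and 2 higher with the columns summed, and 5 of 12 in either direction was below the 50.6% of all genes. The 1 gene that was higher in both aSMC groups was Tinagl1, a matricellular protein that binds laminin and integrins, at 1311 ± 205 CPM in Ai47 aSMCs, 73.4 ± 19.9 CPM in Ai14 aSMCs and 2.70 ± 1.35 CPM in cortex (edgeR adjusted p = 5.01e-11 and 5.13e-06). Fbln1, which encodes fibulin-1, was at 90.7 ± 21.1 CPM in Ai47 aSMCs and 2.46 ± 3.22 CPM in cortex (edgeR adjusted p = 0.000421).

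Of 9 laminin receptors, 4 were higher and 2 lower in Ai47 aSMCs than in cortex, 5 were higher in Ai14 aSMCs and 5 were lower in astrocytes. With library totals alone the counts were 2 higher and 3 lower in Ai47 aSMCs and 2 higher and 3 lower in astrocytes, and with the Ai47 columns summed 2 were higher and none lower. Itga7, the laminin-binding integrin alpha chain of muscle, was at 180.8 ± 67.3 CPM in Ai47 aSMCs and 3.86 ± 3.41 CPM in cortex (log2 fold change 5.55 ± 0.74, edgeR adjusted p = 3.53e-06). Itga6, the laminin-binding integrin alpha chain of endothelium and epithelium, was at 1.24 ± 0.42 CPM in Ai47 aSMCs and 59.6 ± 24.8 CPM in cortex (-5.59 ± 0.83, edgeR adjusted p = 1.41e-05). In Ai14 aSMCs the largest changes were in Itga1, which binds type IV collagen and laminin (575.4 ± 16.4 CPM, edgeR adjusted p = 8.27e-05), and Bcam, the receptor for the Lama5 chain (167.4 ± 12.3 CPM against 13.9 ± 7.54 CPM in cortex, edgeR adjusted p = 0.00235). Itga1 was at 0.4932 ± 0.36 CPM in astrocytes and 43.8 ± 15.7 CPM in cortex (edgeR adjusted p = 2.2e-06).

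Inside the cell, dystroglycan connects laminin to the dystrophin complex. Of 10 tested genes of that complex, 3 were higher and 2 lower in Ai47 aSMCs than in cortex, 4 were higher in Ai14 aSMCs, and 2 were higher and 1 lower in astrocytes. The 5 of 10 called in Ai47 aSMCs compare with 50.6% of all genes. With library totals alone 4 were higher in astrocytes, and with the Ai47 columns summed none was lower in Ai47 aSMCs. Sntb1, a syntrophin, was at 313.6 ± 110 CPM in Ai47 aSMCs, 149.3 ± 19.1 CPM in Ai14 aSMCs and 6.39 ± 5.41 CPM in cortex (edgeR adjusted p = 5.02e-06 and 0.00144). Sgca, the muscle sarcoglycan, passed in both aSMC groups, at 2.44 ± 3.12 and 2.77 ± 2.63 CPM, against a single count in cortex (edgeR adjusted p = 0.00295 and 0.0323). Utrn, the dystrophin relative utrophin, was at 9.76 ± 7.23 CPM in astrocytes and 192.5 ± 58.2 CPM in cortex (edgeR adjusted p = 8.39e-05), and Sgce, another sarcoglycan, was higher in astrocytes (39.6 ± 18.9 against 4.39 ± 2.40 CPM, edgeR adjusted p = 0.00644).

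Among the genes that build the laminin-binding sugar of dystroglycan, Pomt1 was lower in Ai47 aSMCs than in cortex, at 0.173 ± 0.14 CPM against 1.49 ± 1.46 CPM (edgeR adjusted p = 0.0258). Pomt1 did not pass in Ai14 aSMCs or in astrocytes. Of 18 tested genes that make or edit heparan sulfate, the sugar that perlecan carries, 2 were higher and 4 lower in Ai47 aSMCs, none passed in Ai14 aSMCs, and 2 were higher and 2 lower in astrocytes. The 6 of 18 called in Ai47 aSMCs were below the 50.6% of all genes, and their split moved with the processing, to 1 higher and 8 lower with library totals alone, 2 and 2 without mitochondrial genes, and 1 higher and none lower with the columns summed. In astrocytes 6 were higher and none lower with library totals alone, and DESeq2 called 2 lower in Ai14 aSMCs. Ext1, which encodes a polymerase of the chain, was at 284.3 ± 55.7 CPM in Ai47 aSMCs and 11.6 ± 11.6 CPM in cortex (edgeR adjusted p = 7.6e-06). Xylt1, which starts the chain on the core protein, was at 0.0844 ± 0.098 CPM in Ai47 aSMCs, 0.994 ± 1.72 CPM in astrocytes and 21.98 ± 9.32 CPM in cortex (edgeR adjusted p = 2.07e-05 and 0.0197).

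**Figure D5:**
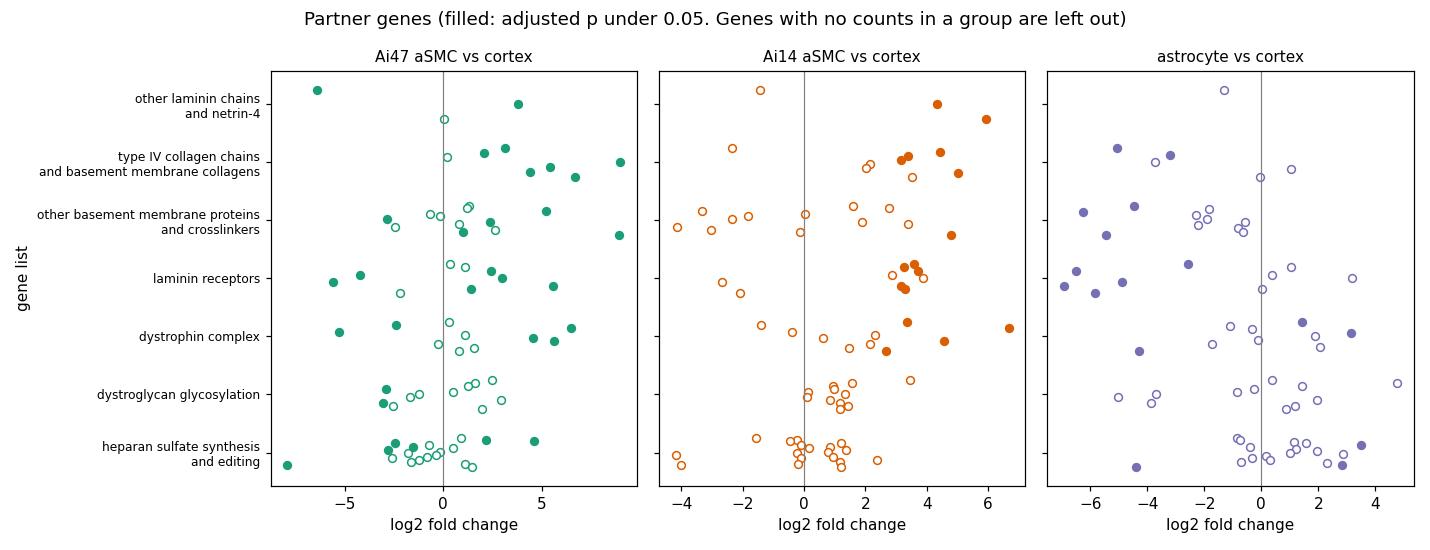
Log2 fold change (horizontal axis) of the genes of 7 partner lists in 3 comparisons with cortex, with 1 point per tested gene, filled where the edgeR adjusted p was under 0.05, and genes with no counts in a group left out. The collagens lie mostly to the right of 0 in both aSMC panels (6 and 4 passed as higher), and the genes of dystroglycan glycosylation lie on both sides.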

How the data were processed

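Bulk RNA-seq of 17 samples was analysed, grouped by their labels. The authors deposited raw read counts, 1 whole number per gene symbol and sample, which had not been normalized. The study's methods name a TruSeq kit, TopHat and htseq-count, whereas the labels name NuGEN Ovation kits and the submitters' processing notes name FastQC 0.11.9, Trim Galore 0.6.7, Salmon 1.4.0, MultiQC 1.13 and the build GRCm38. Not given in the sources used here are which account applies, the annotation release and the strand setting.

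All 17 libraries were fitted together with edgeR 4.0.16 (R 4.3.3): filterByExpr at its defaults (minimum count 10), TMM, a mean per group and the quasi-likelihood F-test, with Benjamini-Hochberg adjusted p under 0.05 over 14927 genes. A standard error is the coefficient over the root of F. The joint fit was used because 2 or 3 libraries leave few degrees of freedom. DESeq2 1.42.0, which the study names, was an alternative, beside other scalings and filters, 2-group fits, a replicate block, a robust spread (limma 3.58.1), summed Ai47 columns and left-out libraries. The fit was also run on simulated counts in which few genes were changed, in a single group at a time. In these data up to 50.6% of genes passed, so that run cannot test the scaling between the groups. Gene positions and exon lengths came from GENCODE M21 (97.3% of symbols matched) and promoters from RefSeq. A share is a gene's counts per kb over the sum of its class in the library. Likeness was the Pearson r of log2(CPM + 0.5). Tables and figures were made in Python 3.11.15 (matplotlib 3.10.9, numpy 2.4.6, pandas 2.3.3).

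The members and lists were chosen with earlier results of these data known. The rule named all 10 members, for each partner list the 2 largest changes past the threshold in each comparison with cortex, the 2 genes most like each member, and at most 2 defining genes of each marker list. Single genes named outside it were chosen after their values were seen. They include Slc2a1, several astrocyte and smooth muscle markers, and Ntn4 and Tinagl1 in the group where these were not the largest change. Bounds from 3 counts cover counting error only, since reads are not independent molecules. The depth of 4537137 to 7390630 counts in astrocytes limits low genes there. Some genes of the partner lists are not reported here.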

Additional observations from a re-analysis of the deposited data

Results flagged for a closer look

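Each of the 20 group levels (10 members in the 6 Ai47 and the 6 cortex libraries) and the 16 shares was searched for a single library far from the rest by Dixon's 95% criterion, which sets its gap to the nearest other library against the range of the group. In 4 levels and 2 shares such a library was found. The shares of the 2 beta chains mirror each other, as do those of the 2 nidogens, so the 2 flagged shares are the same event. By chance the criterion picks about 5% of groups of normally distributed values. Levels in CPM need not have that shape, and the levels of one library are not independent.

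Ai47 replicate 1 had 11.9 CPM of Hspg2 where the other 5 had 1.18 to 4.02 CPM, a gap of 0.735 of the range, and 221 CPM of Lamc1 where the others had 30.2 to 83.5 CPM, a gap of 0.72. Ai47 replicate 4 had 7.66 CPM of Lamb1 where the others had 0.109 to 0.446 CPM, a gap of 0.955. In that library Lamb1 took 6.21% of the beta chain counts per kb and Lamb2 took 93.8%, where Lamb2 took 98.7% to 99.9% in the other 5, a gap of 0.793. Cortex replicate 3 had 12.1 CPM of Lamb1 where the others had 0.258 to 4.22 CPM, a gap of 0.666.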

How the results depend on the processing

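Of the 27 calls among 60 member results, none changed direction under any alternative, and 6 held in every one: Lama4 in Ai47 aSMCs against cortex, Lamb2 in Ai14 aSMCs against cortex, and Lama4 and Nid1 in astrocytes against cortex and in Ai47 aSMCs against astrocytes. Counts of members called moved as follows. For Ai47 aSMCs against cortex (4), it was 2 without mitochondrial genes and with no filter, and 1 with the Ai47 columns summed, without cortex replicates 1 and 2, and with replicate numbers as a block, and 2 to 3 with 1 library left out. Its split of 2 higher and 2 lower became 1 and 4 with library totals alone and 2 and 4 with DESeq2. For Ai14 aSMCs against cortex (4), it was 2 with DESeq2's size factors, without mitochondrial genes, with no filter, with DESeq2 and with cortex replicate 3 as the TMM reference, 1 without cortex replicates 1 and 2, and 1 to 2 with 1 library left out. The count for Ai14 aSMCs against cortex rose to 6 with library totals alone, and Hspg2 was added when only those 2 groups were fitted. For astrocytes against cortex (4), it was 7 with DESeq2, 2 with only those groups fitted and with the block, and 4 to 5 with 1 library left out. For Ai47 against Ai14 aSMCs (5), it was 2 with DESeq2's size factors and with DESeq2, 8 with library totals alone, 1 without mitochondrial genes, with no filter and with the other reference, 7 (1 of them higher) with only those groups fitted, 0 with the columns summed, and 1 to 3 with 1 library left out. Against astrocytes, Ai47 aSMCs (4) gave 4 to 5 and Ai14 aSMCs (6) gave 4 to 7 with 1 library left out, and the latter gave 0 when only those groups were fitted. The former also gave 3 with the block, and with library totals alone its 4 higher became 2 higher and 2 lower. Leaving out any 1 library also changed the TMM reference, and the causes of the other moves were not tested.

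The 30 values that changed sign were all of results that had not passed. With library totals alone, which moved the median of all genes to -1.5, 1.18, -2.59 and -1.89 (log2) in the 4 comparisons concerned, they were Lama5 -0.12, Lamc1 -0.57 and Nid1 -0.93 (Ai47 aSMCs against cortex), Lamb1 0.33 (Ai14 aSMCs against cortex), Lama4 -0.91 (Ai47 against Ai14 aSMCs), and Lama2 -1.39, Lamb1 -2.18, Nid2 -0.45 and Hspg2 -2.32 (Ai47 aSMCs against astrocytes), the last of which then passed as lower (edgeR adjusted p = 0.0498). Without cortex replicates 1 and 2, Lama1 was 1.19 in Ai47 and 3.20 in Ai14 aSMCs against cortex. Lamb1 in Ai47 aSMCs against astrocytes was -0.0075 with DESeq2's size factors, -0.0086 with DESeq2 and -0.0020 with only those groups fitted. Libraries with the same replicate number did not deviate alike from their group means (correlations of -0.0447 to 0.0351). This cannot exclude a shared mouse, since sorted cells and cortex of the same mouse need not deviate alike. The block gave Nid1 -0.050 (Ai47 aSMCs against cortex), Lamc1 -0.023 (astrocytes against cortex), and Lamb1 -0.37 and Lamc1 0.70 (Ai47 aSMCs against astrocytes). With 1 library left out, Ai14 aSMCs against cortex gave Lama1 from -1.64 to 0.56 and Lamb1 from -1.10 to 0.12, astrocytes against cortex gave Lamc1 from -1.88 to 1.76, and Ai47 aSMCs against astrocytes gave Lamb1 from -1.90 to 1.09, Lamc1 from -0.83 to 2.81 and Hspg2 from -0.21 to 3.08. The depth of the cortex and astrocyte libraries limits what can be said of Lama1, Lamb1 and Nid2.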
